A study of Homo sapiens
Mus musculus with 8 samples.

Results

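IVA12-like cells were the mouse B lineage cells of a mixture of 4 lymphocyte cell lines that had been profiled with 10x Chromium kits. They numbered 4586 of the 23147 barcodes with at least 5000 UMIs (unique molecular identifiers, each marking 1 captured RNA molecule). A barcode was chosen when more than 80% of its UMIs were from mouse genes and less than 10% of its mouse UMIs were mitochondrial. In addition, Epcam, Cd24a, Ctss and Ckap4 together had to hold at least 0.02% of its mouse UMIs and at least 5 times as many UMIs as Lgals1, S100a6 and Perp. Exchanging the 2 gene sums gave 8315 EL4-like cells, the other mouse line, and 488 mouse barcodes met neither rule. The genes of both sums, and Ngfrap1, were left out of everything that follows.

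Each library held Jurkat and TALL-104, both human T cell lines, EL4, a mouse CD4+ T cell line, and IVA12, which the study lists as mouse B cells, in equal parts and with no treatment. The 3′ v3 kit had 4 libraries, with 3000 targeted cells for the first pair and 6000 for replicates 3 and 4. For 5′ v1 there were 2 libraries, targeted at 5000 and 2000 cells, and for 3′ v2 replicate 2 was analysed, targeted at 2000 cells. By the sample summary of the study, 3′ v3 replicates 1 and 3 came from mixture F, replicates 2 and 4 from mixture G, 5′ v1 from mixture B and 3′ v2 from mixture A. Kit and mixture therefore cannot be told apart between kits, and libraries of 1 mixture share a cell suspension, so p-values measure the spread between libraries, which may be technical. IVA12 is a single continuous line grown in culture, so its cells do not sample the B cells of an animal.

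B lineage cells pass through fixed stages. Precursors rearrange their immunoglobulin genes, mature B cells carry the B cell receptor, whose signalling chains are Cd79a and Cd79b, and present antigen on MHC class II, and germinal centre B cells mutate their receptor genes. Plasma cells replace this program with that of antibody secretion, under the transcription factors Irf4, Prdm1 (Blimp-1) and Xbp1, and enlarge the endoplasmic reticulum (ER). Of 12 immunoglobulin constant region genes sought in the mouse gene list, 0 were there, so antibody transcripts were not measured.

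Of the IVA12-like cells, 572, 376, 1513 and 729 were in the 3′ v3 libraries, taken in order of replicate number throughout, 900 and 413 in those of 5′ v1 and 83 in that of 3′ v2. Their median UMI count was between 25537 and 35590 per cell, against 25389 to 29345 in EL4-like cells, and the median number of genes was between 4216 and 5206. The single 3′ v2 library stood apart. IVA12-like cells were 15.0% of its mouse cells, against 27.5% to 40.9% elsewhere, and the mitochondrial limit had removed 39.9% of the barcodes that met the other conditions, against 2.34% to 16.4%. Of the 4586 cells, 48 had more than 2 times the median UMIs of their library, and 4 barcodes occurred in 2 libraries. Just inside the limits of the rule, Jchain held 2486 to 3022 UMIs per 1000000 mouse UMIs (CPM) in groups of 14 to 125 barcodes, and just outside them it held 2270 to 3155 CPM in groups of 18 to 83. Counting from 1 end of the transcript gives 1 UMI per molecule whatever its length, so levels of different genes are compared as CPM.

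The label of B lineage cells was checked against markers. T cell markers summed to between 8.93 and 64.98 CPM, against 2891 to 3603 CPM in EL4-like cells, and Cd3d, a chain of the T cell receptor complex, lay between 0.19 and 9.78 CPM against 344 to 730 CPM. Of the myeloid markers, Lyz2, Csf1r, Adgre1 and Cd14 were at or below 0.19 CPM in every library, while Csf2rb reached 24.7 to 52.4 CPM and Cd68 7.67 to 36.3 CPM. The myeloid markers summed to 43.5 to 69.7 CPM against 17.1 to 100.02 CPM in EL4-like cells, and were higher in 5 libraries, by 0.53 to 1.56 on the log2 scale, and lower in 3′ v3 replicates 1 and 3, by 1.08 and 1.15. Epithelial markers other than Epcam summed to 7.54 to 17.8 CPM, most of it Cldn4, against at most 0.38 CPM, and Krt8 and Krt19 had no UMI. The part of these markers in the results below was not tested. Because the cells were chosen by their contrast with EL4-like cells, the comparisons with that line are descriptions without a test. Of 6109 genes at 20 CPM or more in either line, 9.36% were at least 2-fold higher in IVA12-like than in EL4-like cells of the same library in all 7 libraries, and 10.6% were at least 2-fold lower.

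Plasma cell genes were far more abundant than in EL4-like cells. The 29 genes of the plasma cell list summed to 6596, 5746, 6184 and 5559 CPM in 3′ v3, to 9692 and 9199 CPM in 5′ v1 and 3361 CPM in 3′ v2. In EL4-like cells the same genes held 449 to 745 CPM, so no library of one line overlapped the other. Of the 23 members at 20 CPM or more, 17 were at least 2-fold higher in all 7 libraries and 1, Cd28, was lower.

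**Figure D1:**
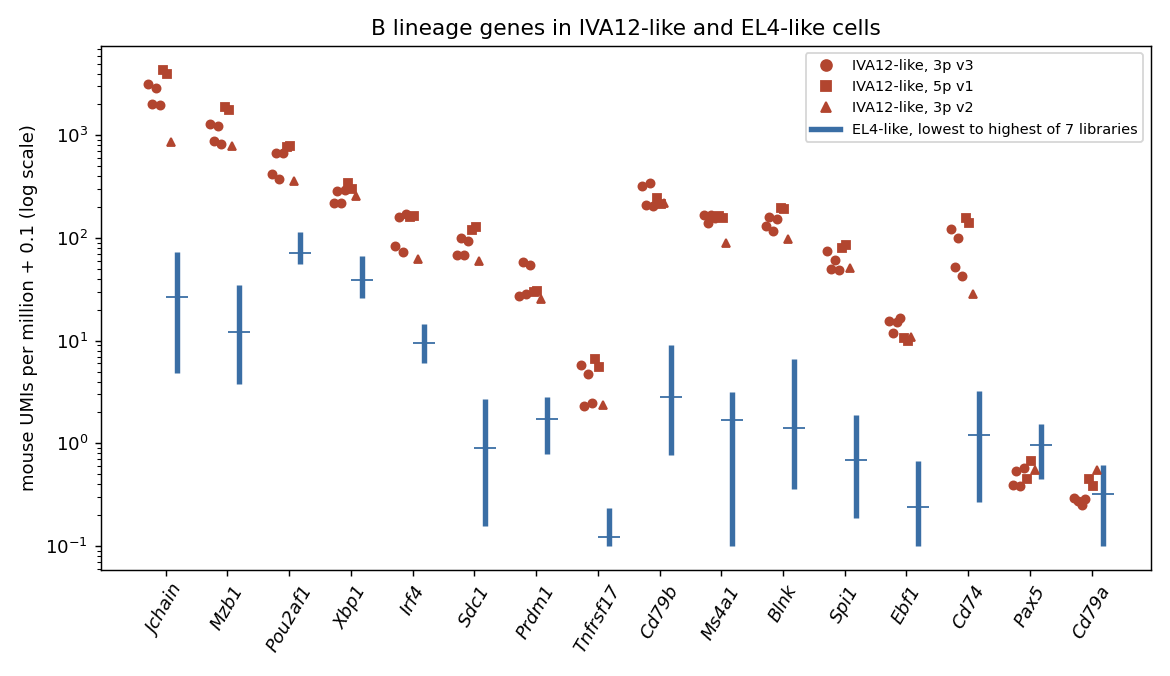
Levels of 16 B lineage genes on a log scale, in CPM plus 0.1. Each red symbol is the IVA12-like cells of 1 library (circles 3′ v3, squares 5′ v1, triangle 3′ v2), and each blue bar spans the EL4-like cells from the lowest to the highest of 7 libraries with the median marked. Jchain and Mzb1 lie at 780 CPM or more in every library, whereas Pax5 and Cd79a lie at or below 0.57 CPM, within or near the EL4-like range.

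Jchain, which joins the subunits of secreted IgM and IgA, was the most abundant member. It held 3185, 2039, 2884 and 1961 CPM in 3′ v3, 4361 and 4000 CPM in 5′ v1 and 855 CPM in 3′ v2. All 7 values lay above the EL4-like cells, where it held 4.79 to 73.7 CPM. Mzb1, an ER cochaperone of antibody assembly, held 1277, 881, 1225 and 818 CPM in 3′ v3, 1878 and 1752 CPM in 5′ v1 and 780 CPM in 3′ v2. Jchain was found in 97.6% to 100% of IVA12-like cells per library and in 86.7% to 99.9% after each cell was thinned to 4000 UMIs. In EL4-like cells, which should lack it, the shares were 2.85% to 72.2% and, thinned, 0.601% to 18.5%. Most cells thus carried the transcript at a depth where the share in EL4-like cells stayed far lower.

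The transcription factors of the plasma cell program were all present. Pou2af1, the coactivator OBF-1, held 363 to 786 CPM, Xbp1 218 to 341 CPM, Irf4 62.3 to 171 CPM and Prdm1 25.3 to 58.8 CPM. Their EL4-like ranges were 55.2 to 116, 25.9 to 66.9, 5.97 to 14.4 and 0.68 to 2.75 CPM. Of the surface markers, Sdc1 (CD138, the syndecan by which plasma cells are recognised) held 59.1 to 129 CPM, Cd81 77.2 to 207 CPM and Slamf7 16.7 to 67.5 CPM. Ell2, an elongation factor that directs the secretory form of immunoglobulin mRNA, held 38.9 to 113 CPM. Within 3′ v3, Prdm1, Irf4, Ell2 and Bhlha15 (Mist1, a factor of secretory cells) were higher in both libraries of mixture G than in both of mixture F. Bhlha15, for example, held 8.42 and 8.83 CPM with mixture F against 40.1 and 40.3 CPM with mixture G. Cd81 went the other way, with 207 CPM in both libraries of mixture F against 86.3 and 83.1 CPM. So did Mzb1 and Jchain, the latter with 3185 and 2884 CPM in mixture F against 2039 and 1961 CPM. The summed plasma cell list was also lower in mixture G, at 5746 and 5559 CPM against 6596 and 6184 CPM.

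Other plasma cell genes were low. Tnfrsf17 (BCMA), a survival receptor of plasma cells, held 2.21 to 6.51 CPM, Derl3, an ER degradation factor, 0.90 to 4.49 CPM and Cd38 at most 1.42 CPM, while Cav1 was at or below 0.05 CPM. Tnfrsf13b (TACI), from the same receptor family as Tnfrsf17, held 35.2 to 99.8 CPM against 18.03 to 50.2 CPM in EL4-like cells.

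Mature B cell genes were split. Of 27 members found, 11 had 20 CPM or more in either line. Of these 11, 6 were at least 2-fold higher and 3 lower in all 7 libraries, against 9.36% and 10.6% of all genes. Under 1 CPM in all 7 libraries were 10 of the 27 members, against 16638 of 27990 mouse genes. Cd79b held 324, 212, 345 and 206 CPM in 3′ v3, 243 and 215 CPM in 5′ v1 and 219 CPM in 3′ v2, against 0.67 to 8.95 CPM in EL4-like cells. Its partner Cd79a, needed for a surface B cell receptor, held 0.15 to 0.45 CPM against 0 to 0.51 CPM. The 2 chains were therefore at very different levels in the same cells, with Cd79b in 95.2% to 99.9% of cells and Cd79a in 0.529% to 1.20%, the latter against 0% to 1.34% of EL4-like cells.

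Ms4a1 (CD20) held 89.4 to 168 CPM, Blnk, an adaptor of B cell receptor signalling, 98.4 to 197 CPM and Syk, its kinase, 15.2 to 38.4 CPM, each at most 6.54 CPM in EL4-like cells. Spi1 (PU.1) held 48.6 to 85.6 CPM and Ebf1, a factor of B cell commitment, 9.88 to 16.5 CPM. Pax5, the factor that maintains B cell identity and is lost in plasma cells, held 0.28 to 0.57 CPM and was lower than in EL4-like cells, with 0.35 to 1.43 CPM, in every library. Both levels rest on few UMIs. It was found in 0.889% to 1.45% of IVA12-like and 1.03% to 3.91% of EL4-like cells, and in 3′ v3 replicate 1 in 1.05% against 1.03%. Blk, a B cell kinase, had 0 UMIs in all 4586 cells, which allows a share of up to 0.0654% of cells with a UMI and a level of up to 0.0211 CPM. Cd22, Cr2, Fcer2a and Cd72 were at or below 0.28 CPM. Ralgps2 and Pou2f2 (Oct-2) were measured at 69.5 to 160 and 99.3 to 223 CPM, but EL4-like cells also held them at 33.2 CPM or more.

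The summed level of pro-B and pre-B genes was low. Of 15 pro-B and pre-B genes, 12 were under 1 CPM in all 7 libraries and 4 had no UMI, against 16638 and 10051 of 27990 mouse genes. The recombinase genes Rag1 and Rag2 reached 0.09 and 0 CPM. The list summed to 3.61 to 10.8 CPM, of which Flt3, a cytokine receptor of progenitors, held 1.81 to 4.86 CPM. The germinal centre list summed to 38.8 to 70.4 CPM against 98.6 to 181 CPM in EL4-like cells. Bcl6, a repressor typical of that stage, lay between 0.38 and 3.36 CPM, while Basp1 held 10.4 to 21.3 CPM and S1pr2 12.3 to 21.6 CPM.

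The secretory machinery, which folds, glycosylates and exports the proteins of the ER, had a higher summed level than in EL4-like cells in each of 4 lists, by less than the plasma cell list. On the log2 scale the summed level was higher by 0.91 to 1.41 for ER chaperones, by 0.59 to 0.90 for N-glycosylation, by 0.36 to 0.70 for the translocon and by 0.40 to 0.51 for ER to Golgi transport. At least 2-fold higher in all 7 libraries were 11 of 33 chaperone genes, 4 of 22 glycosylation genes, 5 of 22 translocon genes and 3 of 31 transport genes at 20 CPM or more, against 9.36% of all genes, so that the count for transport was near the share over all genes.

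**Figure D2:**
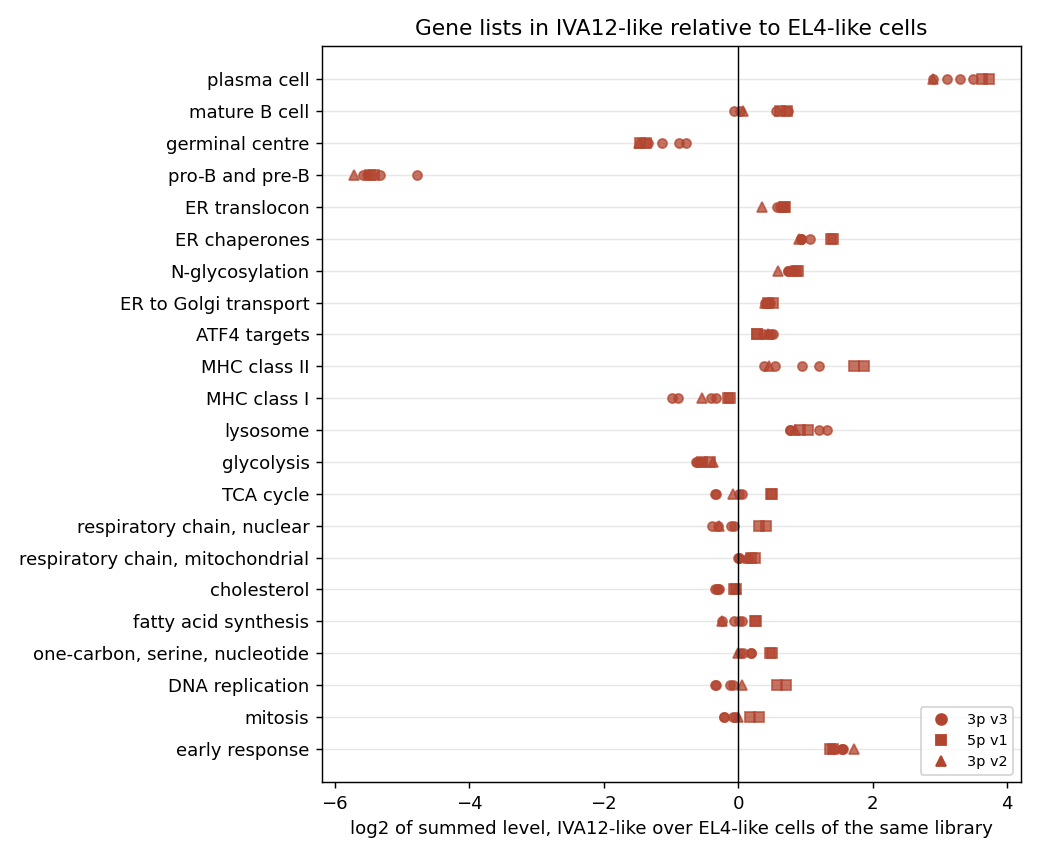
Log2 ratio of the summed level of each gene list in IVA12-like over EL4-like cells of the same library. Each symbol is 1 of 7 libraries (circles 3′ v3, squares 5′ v1, triangle 3′ v2) and the vertical line marks equal levels; the plasma cell list lies between 2.90 and 3.73, and glycolysis between −0.63 and −0.38.

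Among the chaperones, Hsp90b1 (GRP94), which folds immunoglobulins, was the most abundant, with 1179, 1207, 1203 and 1247 CPM in 3′ v3, 853 and 715 CPM in 5′ v1 and 694 CPM in 3′ v2. All 4 libraries of 3′ v3 lay above the other 3. Ppib, a proline isomerase of the ER, held 343 to 932 CPM and Manf, a factor released under ER stress, 503 to 796 CPM. Fkbp11, an isomerase typical of secretory cells, held 41.6 to 96.2 CPM against 0.19 to 3.98 CPM, and Edem2, which trims mannose from misfolded glycoproteins, 65.0 to 175 CPM against 7.95 to 19.4 CPM.

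In the translocon, through which nascent chains enter the ER, the largest members were Sec61b with 949 to 1786 CPM, Ssr4 with 614 to 1121 CPM and Sec61g with 366 to 1489 CPM. Ssr1, a subunit of the same signal sequence receptor complex as Ssr4, was higher than in EL4-like cells by 1.68 to 2.03 on the log2 scale, and Tram1, a translocation-associated protein, was lower, with 64.1 to 94.1 CPM against 238 to 386 CPM. In glycosylation, Rpn2, a core subunit of oligosaccharyltransferase, held 303 to 571 CPM against 47.2 to 135 CPM, and Krtcap2 and Ost4, of the same complex, held 533 to 1023 and 374 to 756 CPM. Tusc3, one of its alternative subunits, was nearly absent, with 0.095 to 1.08 CPM against 33.4 to 88.6 CPM. In transport, Tmed2, a cargo receptor of coated vesicles, held 209 to 484 CPM and was not higher than in EL4-like cells in every library (log2 ratio −0.78 to 0.24). Lman2, a lectin, held 222 to 344 CPM, Ergic2, of the intermediate compartment, 210 to 266 CPM against 46.5 to 67.7 CPM, and Tmed3 49.2 to 92.2 CPM.

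Targets of ATF4, the factor that raises amino acid supply under stress, were higher by 0.27 to 0.52 on the log2 scale. Eif4ebp1, a brake on cap-dependent translation, held 418 to 572 CPM against 129 to 297 CPM, Psat1 302 to 493 CPM and Atf4 itself 229 to 343 CPM. Single members went both ways, since Chac1, which degrades glutathione, was higher by 0.93 to 2.36 and Slc7a11, the cystine transporter that supplies it, was lower by 1.21 to 4.18.

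MHC class II genes, which serve antigen presentation to helper T cells, summed to 88.5 to 220 CPM against 59.99 to 91.7 CPM in EL4-like cells, with log2 ratios of 0.39 to 1.87. Of 14 genes, 8 were under 1 CPM in all 7 libraries and 7 were so in EL4-like cells, against 16638 and 16955 of 27990 mouse genes. Among the 8 were the chains H2-Aa and H2-Ab1, at most 0.76 and 0.13 CPM, and Ciita, the master activator of class II genes, at most 0.10 CPM. Cd74, the invariant chain, held 122, 51.9, 100.4 and 42.9 CPM in 3′ v3, 157 and 141 CPM in 5′ v1 and 28.4 CPM in 3′ v2. All of these lay above the 0.17 to 3.11 CPM of EL4-like cells, and within 3′ v3 both libraries of mixture F lay above both of mixture G. Rfxap and Rfxank, subunits of the factor RFX that binds class II promoters, held 37.8 to 54.7 and 7.22 to 12.9 CPM, and Rfxap held 30.1 to 59.0 CPM in EL4-like cells.

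MHC class I genes summed to 2229 to 3785 CPM, lower than in EL4-like cells by 0.12 to 0.98 on the log2 scale. Of 18 members at 20 CPM or more, 4 were at least 2-fold lower in all 7 libraries and 3 higher, against 10.6% and 9.36% of all genes. The heavy chains H2-K1, with 93.0 to 278 CPM against 410 to 870 CPM, H2-D1, with 68.2 to 215 CPM against 532 to 748 CPM, and H2-Q7, with 9.03 to 22.5 CPM, were at least 2-fold lower in all 7 libraries. The peptide transporter subunit Tap2 was lower too, at 4.06 to 19.2 CPM against 62.6 to 118 CPM, and the light chain B2m held 270 to 635 CPM against 1043 to 1287 CPM. The proteasome activator Psme1, with 346 to 685 CPM against 61.1 to 237 CPM, the peptide editor Tapbpl, with 29.6 to 40.0 CPM against 2.67 to 5.15 CPM, and the nonclassical heavy chain H2-T23 were at least 2-fold higher. Calr, a chaperone that serves both class I and other glycoproteins, held 385 to 685 CPM. Genes of the class I family are near copies of each other, so how reads were shared among H2-K1, H2-D1 and H2-Q7 is uncertain.

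Lysosomal genes were higher by 0.76 to 1.33 on the log2 scale, and 8 of 19 were at least 2-fold higher in all 7 libraries, against 9.36% of all genes. Ctsz, a cathepsin, held 266 to 514 CPM against 21.9 to 54.7 CPM. Lgmn and Ifi30, an endopeptidase and a reductase of antigen processing, held 80.3 to 191 and 35.7 to 133 CPM, and at most 5.62 and 3.40 CPM in EL4-like cells. Psap held 125 to 206 CPM and Lamp1 130 to 217 CPM, the latter lower than in EL4-like cells.

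Glycolysis summed to 3926 to 7086 CPM and was lower than in EL4-like cells in all 7 libraries, by 0.38 to 0.63 on the log2 scale. No member was at least 2-fold higher in all 7 libraries and 4 of 19 were lower, against 10.6% of all genes. They included Gpi1, with 91.2 to 236 CPM against 939 to 2359 CPM, and the glucose transporter Slc2a3, with 4.31 to 14.6 CPM against 176 to 497 CPM. The others were the hexokinase Hk1 and Bnip3, a list member that is not a glycolytic enzyme. The largest members were Pkm, Gapdh and Ldha, with 772 to 1319, 594 to 1819 and 403 to 949 CPM, and each was higher in mixture F than in mixture G within 3′ v3. Pkm, unlike the list, was higher than in EL4-like cells, by 0.23 to 1.69.

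The citric acid cycle summed to 1960 to 3422 CPM and nuclear genes of the respiratory chain to 17368 to 32305 CPM, with log2 ratios to EL4-like cells from −0.34 to 0.51 and from −0.39 to 0.41 that fell on both sides of 0. Idh2, the mitochondrial isocitrate dehydrogenase, stood out with 69.5 to 136 CPM against 0.06 to 4.28 CPM, while Pdha1, of pyruvate dehydrogenase, was lower with 19.9 to 31.6 CPM against 92.3 to 159 CPM. Mdh1 and Mdh2, malate dehydrogenases, held 146 to 498 and 266 to 525 CPM, and Sdhb, of succinate dehydrogenase, held 162 to 371 CPM. The most abundant nuclear respiratory genes were Cox8a, Atp5g1 and Uqcrq, with 857 to 1680, 841 to 1593 and 593 to 1688 CPM. Uqcrb was lower than in EL4-like cells by 0.80 or more in every library, whereas the ratio of Atp5k lay between −1.05 and 0.00. Mitochondrially encoded genes, led by mt-Atp6, mt-Co2 and mt-Cytb, summed to 23653 to 68215 CPM, a level that the mitochondrial limit of the rule bounds; mt-Cytb was higher than in EL4-like cells by 0.68 to 1.09 and mt-Nd6 by 0.69 to 2.48.

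Cholesterol synthesis genes had log2 ratios to EL4-like cells of −0.35 to −0.03, and fatty acid synthesis genes of −0.25 to 0.27, on both sides of 0. Fasn, fatty acid synthase, held 103 to 213 CPM against 25.8 to 85.2 CPM, and Acly, which supplies its acetyl units, 58.7 to 98.3 CPM against 42.3 to 94.4 CPM. The cholesterol genes Hmgcs1 and Stard4 were at least 2-fold lower in all 7 libraries, as were Acsl4 and Scd1, while Fdps, Idi1 and Insig1 had the highest levels of that list. Scd2, a desaturase, held 278 to 282 CPM in mixture F and 607 to 612 CPM in mixture G. Serine, one-carbon and nucleotide synthesis had log2 ratios to EL4-like cells of 0.50 and 0.47 in 5′ v1 but from −0.01 to 0.20 in the other 5 libraries. In IVA12-like cells themselves it summed to 4366 and 4176 CPM in 5′ v1, below the 4441 to 4752 CPM of 3′ v3. Its members included Psph, the last enzyme of serine synthesis, at 155 to 338 CPM against 50.7 to 70.3 CPM, Impdh2 at 256 to 481 CPM and Srm, spermidine synthase, at 344 to 538 CPM. Sms, which turns spermidine into spermine, was lower by 1.75 to 2.50.

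Cell cycle genes, relative to EL4-like cells, differed in direction between kits. DNA replication genes summed to 2446 to 3121 CPM. Their log2 ratios were from −0.34 to −0.08 in the 4 libraries of 3′ v3 but 0.57 and 0.71 in 5′ v1, while 3′ v2 had 0.06. In IVA12-like cells themselves the list was lower in 5′ v1, at 2510 and 2446 CPM, than in 3′ v3, at 2835 to 3121 CPM. Mitotic genes summed to 4549 to 6154 CPM, with ratios from −0.21 to −0.04 in 3′ v3 and 0.17 and 0.31 in 5′ v1. They too were lower in IVA12-like cells of 5′ v1, at 4883 and 4751 CPM, than of 3′ v3, at 6002 to 6154 CPM. The higher ratios of both lists in 5′ v1 therefore reflect lower levels in EL4-like cells there. Tipin and Hells, of the replication fork and of DNA methylation upkeep, held 395 to 579 and 128 to 436 CPM, and E2f1, the factor that starts S phase, held 83.05 to 124 CPM against 18.4 to 32.4 CPM. Slbp, which binds histone mRNA, held 140.3 to 226 CPM, and Gins1, of the replicative helicase, 24.9 to 41.5 CPM against 5.46 to 29.6 CPM. Hmgb2, Top2a and Cenpa were the most abundant mitotic genes, and Tpx2, a spindle factor, was higher by 0.73 to 1.70 while Cks2 was lower by 0.65 to 1.08. Early response genes were higher by 1.37 to 1.72. Btg2, an antiproliferative target of p53, held 441 to 914 CPM against 18.2 to 49.96 CPM, and its relative Btg1 held 1.42 to 3.68 CPM against 62.1 to 171 CPM. Myc held 148 to 605 CPM against 42.6 to 84.9 CPM, and Jund 343 to 643 CPM.

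The comparison of 3′ v3 with 5′ v1 asked which of these levels depended on the kit. It was tested by edgeR's quasi-likelihood test on UMIs summed over IVA12-like cells, with Benjamini-Hochberg adjusted p under 0.05. Of 11873 genes tested, 534 (4.5%) were higher and 577 (4.86%) lower in 3′ v3. The libraries of the 2 kits did not overlap for 43.3% of genes. When 3′ v3 is limited to 1 mixture, each kit is a single cell suspension and the error covers only the spread between its libraries. Calls made that way are no firmer evidence of a difference between kits. The number of calls depended strongly on the libraries. With mixture F alone for 3′ v3 it was 3440 higher and 3533 lower, and with mixture G alone 3983 and 3767. Without 5′ v1 replicate 1 it was 2 and 21, and without 5′ v1 replicate 2 it was 7 and 31, with the remaining 5′ v1 library assumed to vary like 3′ v3. With a mitochondrial share under 5%, which most cells of some libraries exceed, it was 334 and 335.

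**Figure D3:**
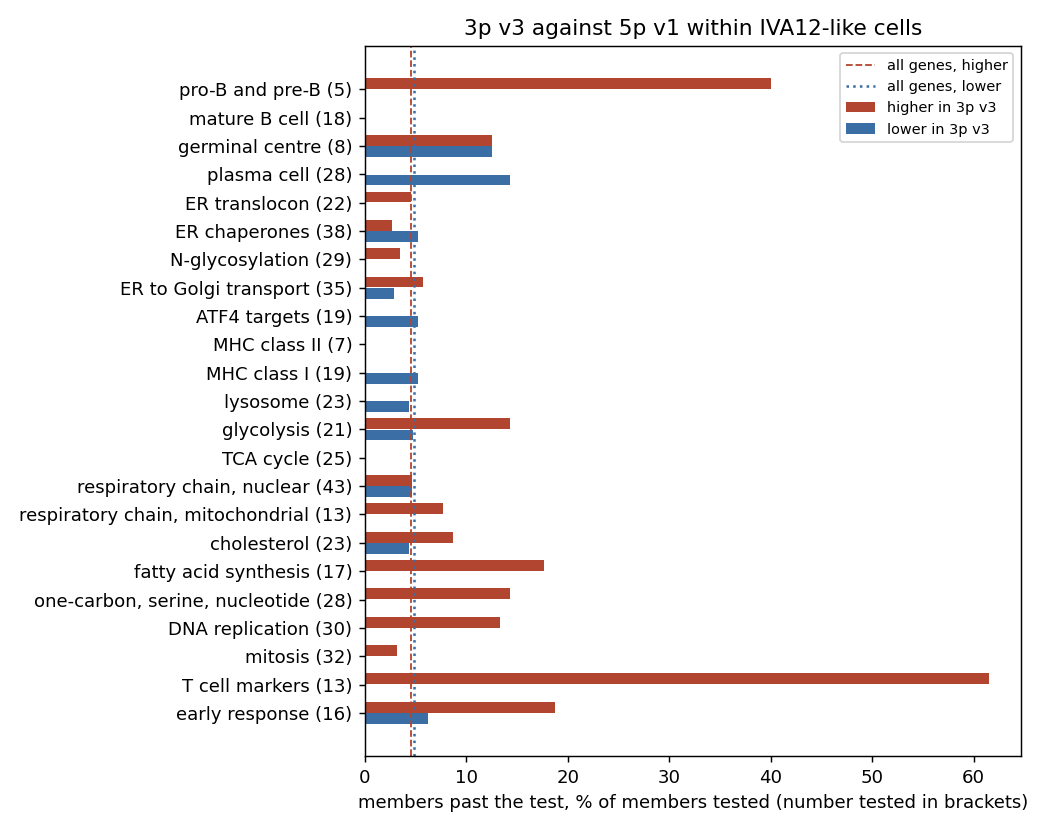
Share of the tested members of each gene list that passed the test between kits within IVA12-like cells, higher in 3′ v3 (red) or lower (blue), with the number of members tested in brackets. The dashed and dotted lines are the shares over all genes, 4.5% and 4.86%; the T cell markers stand apart with 8 of 13 higher in 3′ v3.

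Of 504 genes of the lists that were tested, 40 were higher and 14 lower in 3′ v3, against 4.5% and 4.86% of all genes. In the plasma cell list, to be read against the same shares, 0 of 28 were higher and 4 were lower, namely Edem1, Ly6c2, Il6st and Derl3. Edem1, which removes misfolded glycoproteins, held 165, 245, 156 and 232 CPM in 3′ v3 and 372 and 403 CPM in 5′ v1 (log2 difference −0.95 ± 0.17 SE, edgeR adjusted p = 0.0202). Jchain and Mzb1 were lower in 3′ v3 in all 4 libraries, at 2517 ± 611 (SD, n = 4) against 4180 ± 255 CPM (SD, n = 2) and 1050.0 ± 234 against 1815 ± 89.4 CPM, but neither passed the test (log2 difference −0.68 ± 0.30 SE, edgeR adjusted p = 0.208, and −0.73 ± 0.29 SE, adjusted p = 0.161). No mature B cell gene of 18 tested passed. Ms4a1, with 158 ± 12.4 (SD, n = 4) and 160 ± 6.93 CPM (SD, n = 2), differed by less than the spread between libraries.

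In the secretory lists, 1 of 22 translocon genes, 1 of 38 chaperones, 1 of 29 glycosylation genes and 2 of 35 transport genes were higher in 3′ v3. Lower were 2 chaperone genes, which were Edem1 and Derl3, and 1 transport gene. These counts were near or below the 4.5% higher and 4.86% lower over all genes. Hspa5 (BiP), the main ER chaperone, rose from 425 and 334 CPM in 5′ v1 to 657 to 728 CPM in 3′ v3 (log2 difference 0.89 ± 0.20 SE, edgeR adjusted p = 0.0389). Ergic1, a cycling protein between ER and Golgi, went the other way, from 316 and 333 CPM to 62.9 to 90.5 CPM (−2.08 ± 0.15 SE, adjusted p = 0.00162). Ergic1 and Jun were the only 2 of the 54 called list genes that remained called without either 5′ v1 library.

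Of 30 DNA replication genes 4 were higher in 3′ v3 (Cdc6, Mcm3, Mcm5 and Rrm1) and 0 lower, against 4.5% and 4.86% of all genes. Of 28 genes of the serine, one-carbon and nucleotide list 4 were higher (Mthfd1, Ppat, Shmt1 and Sms) and 0 lower. That list also holds Srm and Sms, which make spermidine and spermine. Of 32 mitotic genes 1 was higher, Hmmr, and 0 lower, counts near the shares over all genes. None of these calls was made without either 5′ v1 library. Mcm3, of the replicative helicase, held 189, 194, 191 and 195 CPM in 3′ v3 and 107 and 95.6 CPM in 5′ v1, groups that did not overlap (log2 difference 0.96 ± 0.17 SE, edgeR adjusted p = 0.0196). Myc was lower in 3′ v3, at 246 to 301 CPM against 605 and 587 CPM (−1.10 ± 0.18 SE, adjusted p = 0.0163), and Jun was higher, at 104 to 110.1 CPM against 16.1 and 14.3 CPM (2.84 ± 0.20 SE, adjusted p = 0.00162). Of 43 nuclear respiratory chain genes tested, 2 were higher in 3′ v3 (Atp5a1 and Atp5k) and 2 lower (Atp5g3 and Cox6a1). These counts were near the 4.5% and 4.86% of all genes. Atp5g3, for example, held 403 to 451 CPM in 3′ v3 and 1447 and 1324 CPM in 5′ v1.

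Of 13 T cell markers tested, 8 were higher in 3′ v3 and 0 lower, against 4.5% and 4.86% of all genes. Their summed level was 42.5 ± 16.6 CPM (SD, n = 4) against 10.1 ± 1.65 CPM (SD, n = 2). Dntt and Il7r of the pro-B and pre-B list were also higher in 3′ v3, and EL4-like cells expressed both at 35.8 CPM or more. The median share of human UMIs in IVA12-like cells moved with this, from 0.216% to 1.03% in 3′ v3 against 0.0311% and 0.0435% in 5′ v1, and the part of RNA from other cells in these calls was not tested. Without the 353 genes that were 10-fold or more higher in EL4-like cells, 472 genes were higher and 574 lower.

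The largest differences between kits were in genes outside the lists. Of those higher in 3′ v3, Snhg9 held 5.05 to 12.6 CPM and RP23-4H17.3 3.13 to 7.83 CPM, and both had 0 UMIs in 5′ v1, so they were at least 112-fold and 66.0-fold higher, taking 3 counts over both 5′ v1 libraries as the limit. The same limit gave at least 10.2-fold for Mylk4, 8.66-fold for Xntrpc, 6.02-fold for Lhfpl4 and 5.49-fold for Cxcr2, which held at most 1.69 CPM. Slamf1 and Cd27, lymphocyte surface receptors, and Lepr, the leptin receptor, had 1 or 2 UMIs in 5′ v1. Their pooled CPM was higher in 3′ v3 by 157-fold (exact 95% interval 43.5 to 1301), 127-fold (35.04 to 1050.4) and 239-fold (42.8 to 9456), intervals that cover counting error only. Me3, a mitochondrial malic enzyme, held 4.72, 37.2, 10.7 and 38.02 CPM in 3′ v3 and 0.09 and 0.19 CPM in 5′ v1, and its libraries of mixture G stood above those of mixture F.

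Of the genes lower in 3′ v3, Timm23, an import channel subunit of mitochondria, held 3.61 to 11.5 CPM against 234 and 246 CPM (log2 difference −5.15 ± 0.49 SE, edgeR adjusted p = 0.00348). Atp6v0c, a proton pump subunit, held 0.29 to 4.21 CPM against 123 and 112 CPM (−5.97 ± 0.86 SE, adjusted p = 0.0110). Of the 20 genes named here and above, Ccl5, Cyb561a3 and Rab4b passed without either 5′ v1 library, H2-Q1 and Timm23 passed only with replicate 1 as the remaining one, and the other 15, Atp6v0c among them, passed in neither case. The chemokine Ccl5 held 0.06 to 0.26 CPM against 13.5 and 13.7 CPM, and H2-Q1, of the class I family, 0.09 to 0.51 CPM against 17.1 and 14.0 CPM. Cyb561a3 and Rab4b, at most 2.61 and 1.73 CPM in 3′ v3, held 43.7 to 52.1 and 26.7 to 28.1 CPM in 5′ v1, and Phospho1, Tymp, Selenbp2 and Phyhd1 held 0.91 to 6.26 CPM there. Timm23, Atp6v0c and Rab4b also reached 291, 142 and 54.8 CPM in EL4-like cells of at least 1 library, whereas Ccl5 did not exceed 0.87 CPM in them.

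Whether the kit difference was the same in both mouse lines was tested as an interaction, with the library as a block. Here larger and smaller refer to the signed log2 difference, 3′ v3 over 5′ v1, and not to its size. Larger means more positive in IVA12-like than in EL4-like cells, and smaller means more negative. Of 13015 genes, 3900 (30%) passed, with a larger log2 difference in IVA12-like cells for 1710 (13.1%) and a smaller one for 2190 (16.8%). ATF4 targets leaned to the larger side, with 15 of 19 larger and 2 smaller and a median difference of 0.97. Within IVA12-like cells their own median kit difference was 0.08, and only Chac1 passed that test. The citric acid cycle with 20 of 25 smaller, nuclear respiratory genes with 26 of 43 and DNA replication with 20 of 30 leaned to the smaller side, while the median over all genes was −0.02. Within IVA12-like cells the median kit differences of these lists were not negative, at 0.33, 0.13 and 0.45 in that order. Without 5′ v1 replicate 1 the calls over all genes fell to 546 larger and 941 smaller, without 5′ v1 replicate 2 to 597 and 757, and with a mitochondrial share under 5% to 441 and 578.

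Variation among the IVA12-like cells of 1 library was described after each cell was thinned to 4000 mouse UMIs, as the ratio of the observed variance to that of binomial sampling. Of 1121 genes with at least 0.5 UMI per thinned cell, the median ratio was 1.07 and 75 (6.69%) exceeded 1.5. For lists the variation beyond sampling is also given as an SD in percent of the mean, which does not grow with depth as the ratio does. Cells share a library and a fixed total, so these values carry no test.

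**Figure D4:**
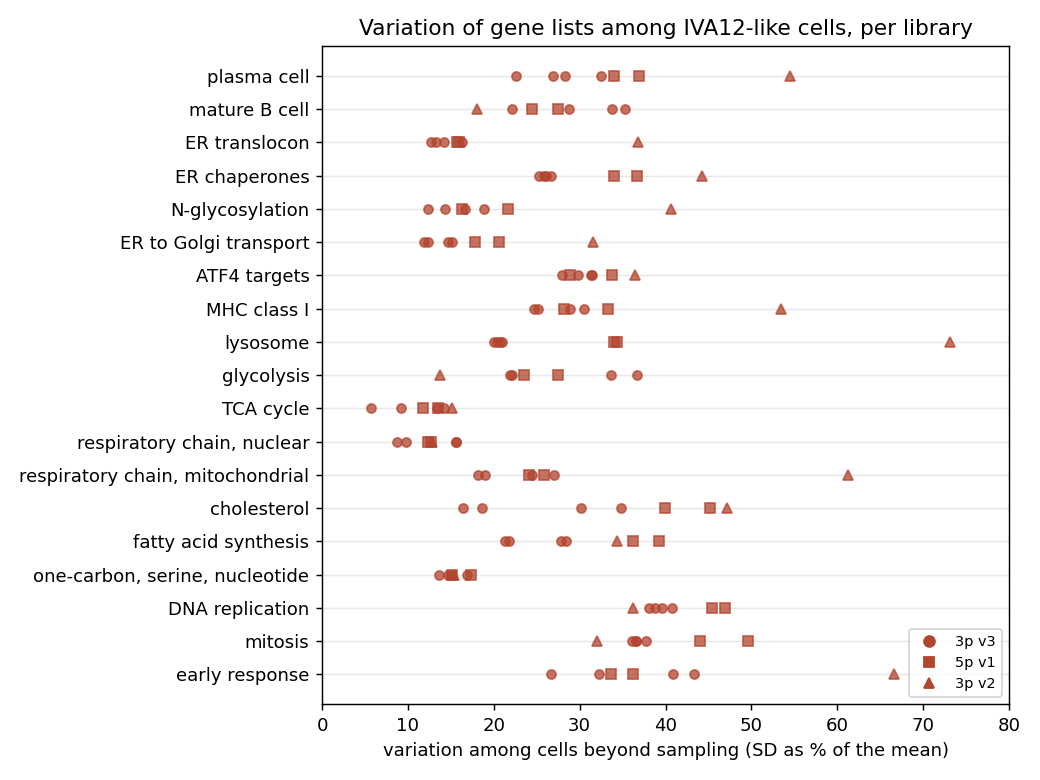
Variation among IVA12-like cells beyond binomial sampling, as the SD in percent of the mean, for each gene list and library (circles 3′ v3, squares 5′ v1, triangle 3′ v2) at 4000 UMIs per cell. Apart from 3′ v2 (83 cells), the cell cycle lists lie between 36.1% and 49.6%, and the translocon between 12.6% and 16.3%.

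Crip1, a small LIM domain protein, varied most, with a ratio between 16.2 and 62.1. It was found in 7.68% to 18.8% of thinned cells in the 6 libraries of 3′ v3 and 5′ v1 and in 45.8% in 3′ v2 (21.3% to 67.2% and 83.1% unthinned). In EL4-like cells, at similar depth, the thinned shares were 20.1% to 62.9% and 81.2%. The summed level of Crip1 was 106 to 726 CPM in the IVA12-like cells of those 6 libraries, against 58.7 to 277 CPM in EL4-like cells, and 6118 against 444 CPM in 3′ v2 with its 83 cells. Both libraries of mixture G had it lower in IVA12-like cells, and the other 5 had it higher. Crip1 was lower in the 25% of cells with the most UMIs than in the 25% with the fewest in all 7 libraries (log2 difference −4.08 to −0.47). Slpi, a secreted protease inhibitor, had a median ratio of 11.95 over libraries and Malat1, a nuclear long noncoding RNA, one of 11.8. Slpi held 710 to 1783 CPM, against 0.39 to 48.8 CPM in EL4-like cells. Mdm2, the ubiquitin ligase that limits p53, held 1448 to 2582 CPM against 24.4 to 154 CPM and was found in 98.8% to 100% of thinned cells, with a median ratio of 2.82.

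Among the other genes of the highest ratios were the mitochondrial mt-Cytb, mt-Atp6, mt-Co2, mt-Co1, mt-Co3 and mt-Nd1, with medians from 2.91 to 4.30, the ferritin chains Fth1 and Ftl1 with 3.48 and 2.47, and Jchain with 3.65. Actg1, Eef1a1, Hist1h2ap, Mt1 and Hspa8 had medians from 2.36 to 3.52, and the unnamed genes Gm26917 and Gm42418 had 3.01 and 2.23. For Gm42418 the ratio reached 44.4 in 1 library, and for Hist1h2ap 16.4.

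Of the lists, DNA replication and mitosis had an SD beyond sampling of 38.1% to 47.0% and 36.1% to 49.6% of the mean in the 6 libraries other than 3′ v2, and MHC class II one of 80.2% to 146%. The plasma cell list varied by 22.6% to 37.0% and ER chaperones by 25.3% to 36.7%. For the plasma cell list, the median ratio of observed to sampling variance over 7 libraries was 3.87, and it was 2.09 in cells with a mitochondrial share under 5%. That limit removed most cells of some libraries, whose median share was as high as 6.89%. In 3′ v3 replicates 2 and 4 even the 5th percentile of the share was 4.73% and 4.84%. The translocon, ER to Golgi transport and the one-carbon list varied by at most 20.6%, and cytosolic ribosomal proteins by 7.77% to 12.7%. In 3′ v2, with 83 cells, the secretory and lysosomal lists varied more than elsewhere, the lysosomal list by 73.1% against at most 34.3%.

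From cell to cell, the 4 secretory lists had positive but mostly weak correlations. Pearson's r between translocon and ER chaperones was 0.42 as the median of 7 libraries (0.32 to 0.63, over 83 to 1513 cells each). For the other 5 pairs the median lay between 0.19 and 0.30 and the lowest library between 0.11 and 0.24. With genes held by both lists left out, r between the plasma cell list without Jchain and ER chaperones was 0.32 (0.20 to 0.48), and between that list and Jchain 0.30 (0.13 to 0.46). Such correlations were not confined to secretory lists. Between the plasma cell list without Jchain and MHC class I genes r was 0.39 (0.28 to 0.54), and with lysosomal genes 0.27 (0.16 to 0.55). Between Jchain and the 4 secretory lists the medians were only 0.04 to 0.14. Mitochondrially encoded genes fell with the UMI count of a cell (−0.30, from −0.55 to 0.03). Between the 25% of cells with the most UMIs and the 25% with the fewest, mitotic genes were higher by 0.25 to 0.69 on the log2 scale in all 7 libraries, and mitochondrially encoded genes lower by 0.07 to 0.70. For Jchain the difference lay between −0.71 and 0.31.

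Cells high in DNA replication genes were less often high in mitotic genes than the remaining cells. Of the cells in the top 25% for replication, 8.74% to 21.2% were also in the top 25% for mitosis, against 30.7% to 36.7% of the remaining cells. This held in all 7 libraries. Pearson's r between the lists was weak, however, with a median of −0.17 (−0.26 to 0.07), and was not negative in every library.

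**Figure D5:**
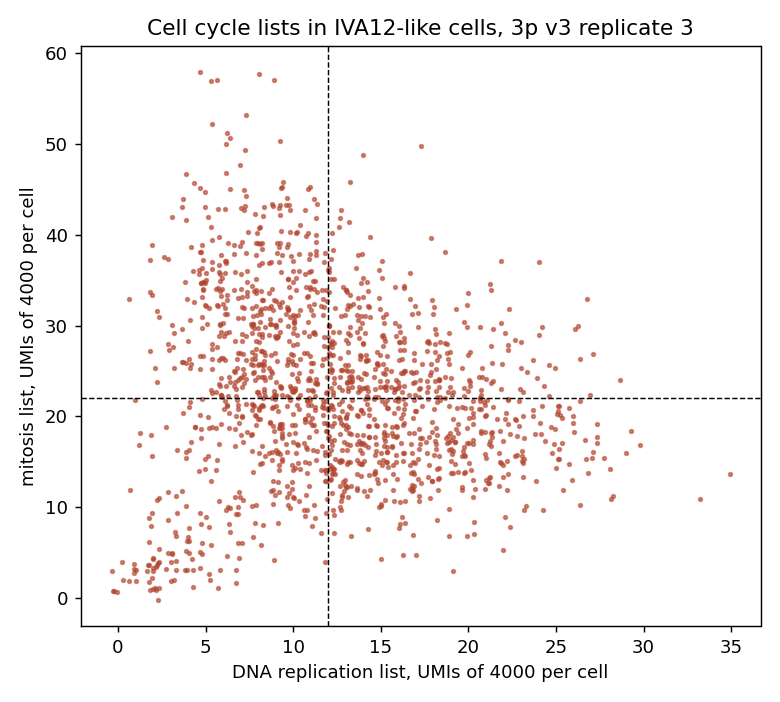
DNA replication against mitosis, in UMIs of 4000 per cell, for the 1513 IVA12-like cells of 3′ v3 replicate 3, each point 1 cell with a small random shift. Dashed lines are the medians, 12 and 22 UMIs; cells high in one list are rarely high in the other, and a small group at the lower left, with fewer than 10 UMIs of each, comprises 89 cells.

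A group of cells with fewer than 10 thinned UMIs of each cell cycle list was seen in that plot and was described afterwards, without a test, since it was chosen after its values were seen. It held 23, 14, 89 and 31 cells in the 3′ v3 libraries (3.72% to 5.88%), 121 and 55 in 5′ v1 (13.4% and 13.3%) and 7 in 3′ v2 (8.43%). The larger share in 5′ v1 stands beside lower mitotic levels over all its IVA12-like cells, 4817 ± 93.6 (SD, n = 2) against 6067 ± 68.4 CPM (SD, n = 4). The fixed limit of 10 UMIs also lay above the median replication count of 9 in 5′ v1 and 3′ v2, but below the 11 to 12 of 3′ v3. Relative to the other cells, the group differed by −1.77 to −0.38 on the log2 scale in replication genes and by −2.81 to −0.73 in mitotic genes. The median UMI count of these cells was 22722 to 25873, below the other cells of the same library, which had 25902 to 36059, in 7 of 7 libraries.

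Cd74 was higher in these cells in all 7 libraries, by 1.17 to 1.85 on the log2 scale of CPM plus 1 outside 3′ v2, and by 3.20 in 3′ v2, with 7 such cells (165 against 17.1 CPM). In 3′ v3 replicate 3 it held 315 CPM in them and 91.2 CPM in the others, and in 5′ v1 replicate 1 it held 351 and 131 CPM. Jchain was higher in 6 of 7 libraries, with 3′ v2 as the exception, and the plasma cell list was higher in 7 of 7, by 0.20 to 0.55 (median 0.44). Mature B cell genes moved by similar amounts, so the group was not set apart by plasma cell genes alone. Their list differed by −0.17 to 0.48 (median 0.41), Ms4a1 by 0.17 to 0.82 and Cd79b by −0.44 to 0.88 (median 0.75). Early response genes were higher by 0.41 to 0.65 and lysosomal genes by 0.20 to 0.44, both in 7 of 7 libraries. Sdc1 went the other way, lower in 6 of 7 libraries (−0.39 to 0.30). Markers of other cells moved with this group. T cell markers were higher in 6 of 7 libraries (−0.12 to 0.71) and myeloid markers in 6 of 7 (−0.87 to 0.99), and the median mitochondrial share was higher in 6 of 7, for example 4.95% against 4.26% in 3′ v3 replicate 3. Their part in these differences was not tested.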

How the data were processed

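The deposited values were raw UMI counts per gene and barcode. Before deposit, the authors had downsampled the reads with seqtk and counted UMIs with Cell Ranger 3.0.2, a version that the submitters' processing notes give, on a reference joining hg19 and mm10 (60736 genes, 27998 of them mouse). All barcodes were kept, without cell calling, so the limit of 5000 UMIs was set here. Samples were grouped by the kit in their titles, and 3′ v2 replicate 1 was not analysed here. Library totals ranged from 24790710 to 251164949 UMIs, and IVA12-like cells held 2215536 to 52972815 mouse UMIs per library. Doublets were not called; barcodes with both species were limited by the 80% minimum, and barcodes with both mouse lines by the ratio of the naming genes. No genome of these builds was used, so no locations or sequences are given.

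UMIs of mouse genes were summed over cells per library and line and given as CPM of mouse UMIs. Kits were compared with edgeR 4.0.16 (TMM, filterByExpr, glmQLFit and glmQLFTest, R 4.3.3), without covariates or, for the interaction, with the library as a block. The code was tested on simulated data. DESeq2 1.42.0 was an alternative. Limits for 0 UMIs used 3 counts, and exact intervals cover counting error only. Named genes were: every stage gene, named or counted; per other list the 3 of highest mean level and the 2 of largest ratio to EL4-like cells at 20 CPM or more; the 10 largest rises and falls between kits whose libraries did not overlap; and the 20 most variable genes. Kit names leave out predicted genes (Gm, Rik), Rpl, Rps and mt- genes. Cd28, H2-T23, H2-Q7 and other list members beyond this rule were chosen after their values were seen. The members and the 25 gene lists (571 of 574 entries found) were chosen with earlier results of these data known. Some genes of the lists are not reported here.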

Additional observations from a re-analysis of the deposited data

Results flagged for a closer look

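In 163 values tested within the 4 libraries of 3′ v3, 5 had 1 library apart from the other 3 by Dixon's ratio of gap to range above its 95% critical value, and chance alone flags about 1 in 20 groups. The ratio was 0.844 for Sms, with 42.4 CPM in replicate 1 against 55.3 to 57.7 CPM, and 0.845 for Srm, with 388 CPM in replicate 1 against 344 to 351 CPM. It was 0.852 for Xntrpc, with 1.69 CPM in replicate 4 against 0.43 to 0.62 CPM. It was 1 for Phyhd1 and Selenbp2, which had 5 and 2 UMIs in all of 3′ v3, every one in replicate 3, the deepest library. With 0 UMIs in the other 3 libraries the ratio is 1 at any level, so these 2 values say nothing about that library.

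Of the 20 genes named for their difference between kits, 8 had an interaction with the line (edgeR quasi-likelihood test, adjusted p under 0.05). Over all 13015 genes the share was 30%. The 20 genes were chosen for large kit differences in IVA12-like cells, which also enter the interaction. Their count therefore cannot be read as an excess over all genes. The interaction is the log2 kit difference in IVA12-like cells minus that in EL4-like cells of the same libraries. It was −7.50 for Ccl5, −5.92 for H2-Q1, −1.67 for Cyb561a3 and 0.42 for Timm23. It was 4.38 for Me3, and for Slamf1, Cd27 and Mylk4, with 2, 2 and 0 UMIs in IVA12-like cells of 5′ v1, the fitted values of 6.84, 6.96 and 7.12 depend on the prior count and are no measure of size. In EL4-like cells Slamf1, Cd27 and Mylk4 held 4.78 to 7.96, 8.37 to 14.4 and 28.2 to 61.2 CPM over all 7 libraries. The cause of these differences was not tested.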

How the results depend on the processing

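None of the 54 called list genes or the 20 genes named for the kit changed direction. Untested mean log2 ratios to EL4-like cells near 0 crossed 0 when 1 library was left out, from −0.03 to 0.11 for the citric acid cycle, −0.04 to 0.13 for DNA replication, −0.04 to 0.05 for fatty acid synthesis and −0.06 to 0.03 for mitosis. Calls between kits (534 higher, 577 lower) ranged over 2 to 404 higher and 21 to 409 lower when 1 library was left out, and those of the interaction (1710 larger, 2190 smaller) over 546 to 1892 and 757 to 2288. With mixture F alone, where each kit is 1 suspension, the kit calls were 3440 and 3533. The same limit holds for mixture G alone, where they were 3983 and 3767, with 2872 larger and 3083 smaller interactions. With a mitochondrial share under 5% they were 334 and 335, and 441 and 578, and 30 of the 54 list genes and 15 of the 20 named kit genes passed. DESeq2's Wald test gave 1119 higher and 808 lower. Of the 54 called list genes, 2 passed without 5′ v1 replicate 1 and 2 without replicate 2, and 33 to 37 without a 3′ v3 library, none in the opposite direction. Of the 20 named kit genes, 3 and 5 passed without either 5′ v1 library. A minimum of 5 CPM gave 1021 genes 2-fold higher and 1085 lower than in EL4-like cells. At 8000 UMIs per cell, where the variance ratio is larger by construction, it was 1.64 for mature B cell genes, 5.79 for ER chaperones, 3.47 for ATF4 targets, 2.80 for MHC class I, 4.01 and 30.1 for nuclear and mitochondrial respiratory genes, 1.52 for cholesterol, 1.56 for fatty acids, 1.74 for one-carbon genes, 4.92 for DNA replication and 7.59 for mitosis. With a mitochondrial share under 5%, which most cells of some libraries exceed, it was 2.09 for the plasma cell list, from 3.87. The cause was not tested. No paired analysis was possible because the numbers only name libraries and no shared animal, culture or day ties a 3′ v3 library to a 5′ v1 library. Depth limits genes under about 0.1 CPM in 5′ v1, where 3 counts over both libraries are 0.0890 CPM. Removing genes 10-fold higher in EL4-like cells, an alternative chosen after seeing the data, gave 472 and 574 calls between kits and 1487 and 2187 interactions.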
